A study of Saccharomyces cerevisiae with 16 samples.

Results

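The 4 arrays taken 150 min after methionine was removed from cultures of Saccharomyces cerevisiae are described here, out of 16 arrays in the series. They compare lines H and 170, which carry HOG1 alleles described in the study's title as intrinsically active, with a line carrying wild-type HOG1 and a line carrying an empty vector. The arrays were chosen by title: H 150 against WT 150 on slide 1, and 170 150 against vec 150 on slide 2. The 3 HOG1 lines were hog1∆ cells with a HOG1 gene cloned behind the MET3 promoter, which methionine in the medium shuts off and its removal switches on. The empty vector was carried by JBY13 cells, and the labels do not say whether these lack HOG1. The labels do not settle which mutation each active line holds. The source of line H reads HOG1D170A and that of line 170 reads HOG1D170A+F318L, while the description of line 170 reads D170A, so the lines keep their titles here and no difference is ascribed to a mutation. Total RNA was labelled with Cy3 and hybridised to single-colour Agilent arrays, 1 array for each line at 0, 45, 90 and 150 min.

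Hog1 is the stress-activated MAP kinase of budding yeast. Sensors at the cell surface pass a signal of high osmolarity through a kinase cascade to Pbs2, which phosphorylates Hog1. Active Hog1 enters the nucleus, acts with factors such as Hot1, Sko1 and Msn2/4 to switch on genes for glycerol synthesis and stress protection, and delays the cell cycle. Phosphatases including Ptp2 and Ptp3 switch it off again. An allele that is active by itself needs no signal from Pbs2.

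Every value below is the log2 of a gene's processed spot signal relative to its array's 75th percentile, and every difference is in log2 units, so that 1 unit is a doubling. Where no times are named, rose and fell mean higher and lower in the active lines than in their controls at 150 min. They do not mean a change over time. Among 6227 genes, 6165 were well above background on at least 3 of the 16 arrays and were tested. At 150 min, 94.07% to 98.81% of spots lay well above background, with the lowest share on the 170 array. No line was replicated at any time. The spread was therefore estimated in limma from the 8 arrays at 45 and 90 min, and the 150 min arrays are assumed to vary in the same way. The p-values measure that spread only, and the comparison of the pairs also differs in slide and in the kind of control.

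HOG1 itself was at 5.74 in WT, 5.41 in H, 6.16 in 170 and -2.15 in vec at 150 min. The 3 HOG1 lines were thus close together and far above the vector line. At 0 min the same lines already read 1.89, 1.65 and 1.51, against -1.67 in vec. HOG1 was 8.31 ± 0.17 (SE) higher in 170 than in vec (limma adjusted p = 4.1e-05) and 0.33 lower in H than in WT (adjusted p = 0.40). MET3, an enzyme of sulfate assimilation whose promoter drives the constructs, read 2.57, 2.46, 3.20 and 2.88 in WT, H, vec and 170, with a mean difference between active lines and controls of -0.22 ± 0.57 (adjusted p = 0.80).

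The first question was which genes separated the active lines from their controls. Averaged over the pairs, 777 genes passed the test, which is 12.6% of those tested, with 493 higher (8%) and 284 lower (4.61%) in the active lines. Their difference had the same sign in both pairs for 759 of the 777. These genes were called on the mean of the same pairs, so a shared sign is largely fixed by the choice. The cell wall gene PIR3 had the largest mean difference among the agreeing higher genes and SCW11, a glucanase of daughter cells, among the agreeing lower genes. Taken alone, H minus WT passed for 0 genes in limma (0%), with a smallest adjusted p of 0.16 and 929 genes at an unadjusted p under 0.05. The same test of 170 minus vec passed for 526 genes (8.53%), 342 higher (5.55%) and 184 lower (2.98%). No gene therefore passed in each pair separately, and agreement is described below by size, a choice made after the values were seen. In fits to the 4 arrays at 150 min alone, no gene passed for the mean of the pairs, with 1549 genes at an unadjusted p under 0.05 with the slide as a term and 856 without it.

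Differences of at least 1 unit in both pairs were found for 111 genes that were higher in the active lines (1.8% of those tested) and for 21 that were lower (0.341%). The mean of the pairs passed the test for 100 of the higher and 17 of the lower genes. On all 4 arrays at 150 min, 101 of the higher and 19 of the lower genes were well above background. No gene was past 1 unit in opposite directions. Of the 148 genes past 1 unit higher in H than in WT (2.4%), 75% were also past 1 unit higher in 170 than in vec, and these were 30.7% of the 361 genes past it in that pair (5.86%). On the lower side the shares were 67.7% of 31 genes (0.503%) and 9.17% of 229 genes (3.71%). The 170 and vec pair thus differed more widely, with an SD over all genes of 0.67 against 0.42 for H minus WT. Across the 6165 genes, which are not independent replicates, the pair differences had a Pearson r of 0.65 and a Spearman rho of 0.63 at 150 min, and the pairs share no array. Before methionine was removed they were already 0.44 and 0.39. At 45 min they were 0.47 and 0.48, and at 90 min 0.69 and 0.62. The genes nearest the 1 unit limit were DAL4, AIM20, REG2 and DGR2 inside it, with a smaller pair difference of 1 to 1.02 in size, and SPI1, PRY3, CTS1 and AAC3 outside it, with 0.999 to 0.987.

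**Figure D1:**
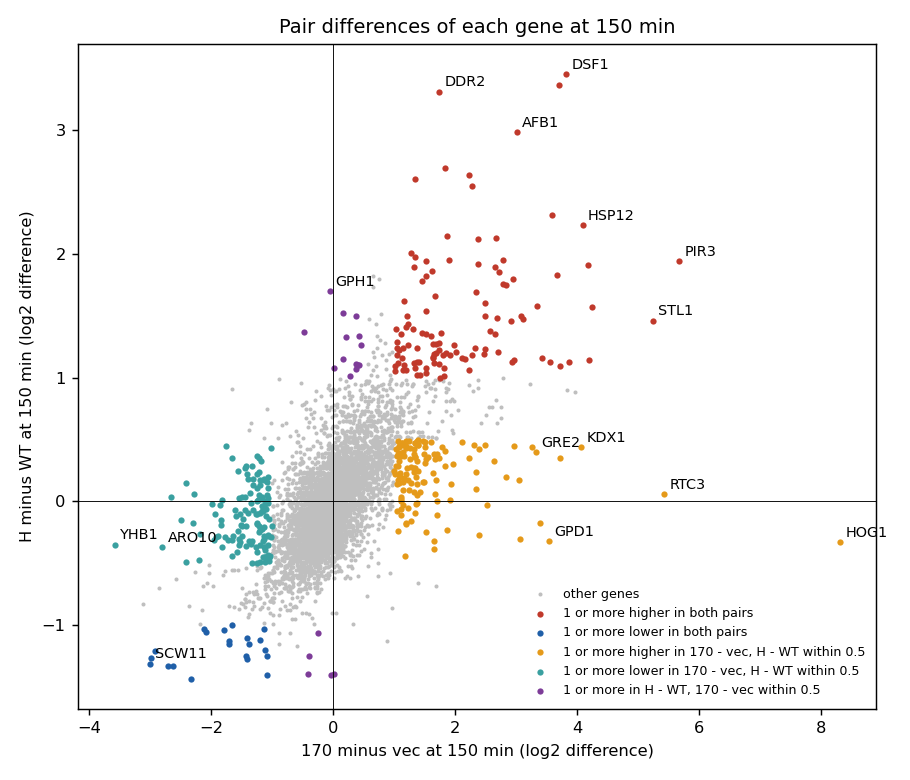
Difference of each of the 6165 genes at 150 min in the 170 and vec pair (horizontal, log2 units) and in the H and WT pair (vertical, log2 units), each point 1 gene and 2 arrays per axis. The 111 genes in red and 21 in dark blue are past 1 unit in both pairs, the 127 in orange and 126 in teal are past 1 unit in the 170 and vec pair with H within 0.5 of WT, and the 14 and 5 in purple are past 1 unit in the H and WT pair with 170 within 0.5 of vec.

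The 12 highest agreeing genes had varied roles. PIR3, a structural protein of the cell wall, read 1.75 in WT and 3.69 in H, and -2.36 in vec and 3.31 in 170. Both active arrays lay above both controls, and WT lay between them and vec. PIR3 was 3.81 ± 0.40 higher in the active lines, or 14.0-fold (adjusted p = 0.012). STL1, the glycerol importer of the plasma membrane, read -3.79, -2.33, -7.42 and -2.18 in WT, H, vec and 170. Its mean difference was 3.35 ± 0.66 (adjusted p = 0.033), the average of 5.24 in the 170 and vec pair and 1.46 in the other. DDR2, a small stress protein, leaned the other way, at -2.29, 1.01, -2.99 and -1.25, so that H exceeded WT by 3.31 and 170 exceeded vec by 1.74. PNS1, a membrane protein related to choline transporters, read 1.15, 2.27, -1.83 and 2.03, a mean difference of 2.49 ± 0.31 (adjusted p = 0.016).

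The mannitol dehydrogenase genes, AFB1 and ALD3 differed by similar sizes in the pairs, while NFG1 and MPC3 did not. DSF1, a mannitol dehydrogenase, read -1.5 in WT and 1.95 in H, and -2.40 in vec and 1.41 in 170, so the pair differences were 3.45 and 3.82. Its near-identical copy MAN2, whose RNA the probes may not tell apart, differed by 3.36 and 3.71. AFB1, a secreted factor that blocks a-factor pheromone, read -3.54, -0.55, -4.34 and -1.33, with pair differences of 2.98 and 3.01. NFG1, a negative regulator of filamentous growth, read -3.62, -1.32, -4.58 and -0.99, so its pair differences were 2.31 and 3.59 (mean 2.95 ± 0.32, adjusted p = 0.014). ALD3, a cytosolic aldehyde dehydrogenase induced by stress, differed by 2.12 and 2.38 (mean 2.25 ± 0.16, adjusted p = 0.0082). GAC1, which targets a phosphatase to glycogen synthase, differed by 2.13 and 2.67 (mean 2.40 ± 0.23, adjusted p = 0.012), but its difference was already 1.90 at 0 min (adjusted p = 0.010). MPC3, a subunit of the mitochondrial pyruvate carrier, differed by 1.57 and 4.25 (mean 2.91 ± 0.23, adjusted p = 0.0082) and likewise stood 1.74 higher at 0 min (adjusted p = 0.011). ALD3 and GAC1 were not among the 12 highest with a symbol. The other 3 of those 12 were SHH3, a homologue of a succinate dehydrogenase subunit, at 3.05, SNO4, a relative of the chaperone Hsp31, at 2.46, and the maltase MAL12 at 2.43. SNO4 and MAL12 also have near-identical copies (HSP32 and HSP33, and MAL32), each of which passed the test. At 0 min MAL12 was already 1.26 higher in H than in WT and 2.69 higher in 170 than in vec. DSF1 then differed by 0.88 and 1.73 in the same order, and MAN2 by 0.81 and 1.72. The mean differences of DDR2 and PIR3 at 0 min were 1.5 and 1.17. PNS1, SHH3 and SNO4 were likewise higher in both pairs at that time. NFG1 was lower in both, and AFB1 and STL1 were higher in H than in WT but lower in 170 than in vec.

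The agreeing genes that stood lowest were mostly genes of cell separation and the cell cycle. SCW11, a glucanase of daughter cells, read -1.03 in WT and -2.34 in H, and 0.30 in vec and -2.71 in 170. DSE1, a daughter-cell protein, read -1.37, -2.63, 0.15 and -2.84 in the same order. In both genes the active arrays lay together below WT, and vec lay above WT. SCW11 fell by 2.16 ± 0.27 (SE) relative to the controls (adjusted p = 0.016) and DSE1 fell by 2.12 ± 0.31 (adjusted p = 0.018). DSE2 and DSE4, glucanases that degrade the septum from the daughter side, fell by 1.98 and 2.06, and EGT2, also of cell separation, fell by 1.88. BUD9, a mark of the bud site, fell by 2.02, SUN4, a glucanase of the septum, by 1.57, the G1 cyclin CLN1 by 1.43 and the histone HTB2 by 1.41. DSE3 fell by 1.57, and GIC1, an effector of Cdc42, and HMS2, a transcription factor of filamentous growth, each fell by 1.34. For 9 of these 12 genes the mean of the pairs also passed at 0 min, before methionine was removed; the exceptions were DSE3, DSE4 and HMS2. At 0 min SCW11 was 3.75 lower and DSE1 3.31 lower in 170 than in vec (adjusted p = 0.0035 and 0.0058), while H was 0.75 and 1.06 below WT. Since both classes were chosen by their size at 150 min, their medians at that time are a description fixed by the choice. Over the 21 agreeing lower genes the median of 170 minus vec was -2.45 at 0 min and -1.71 at 150 min, and that of H minus WT was -0.39 at 0 min and -1.20 at 150 min. Over the 111 agreeing higher genes the medians went from 0.51 to 1.81 in the first of these pairs and from 0.31 to 1.34 in the second.

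**Figure D2:**
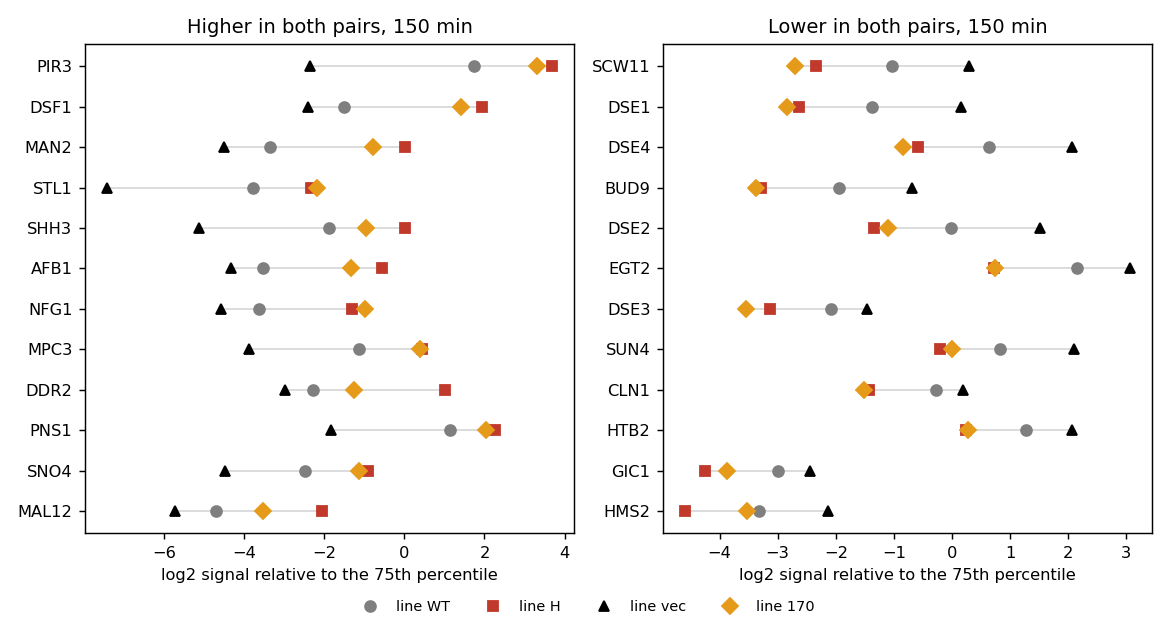
Log2 signal relative to the array's 75th percentile at 150 min in the 4 lines, 1 array per point, for the 12 highest and 12 lowest genes by mean difference among those with a symbol, past 1 unit in both pairs, that passed the test. In PIR3 the active arrays read 3.69 and 3.31 against 1.75 in WT and -2.36 in vec, and in SCW11 they read -2.34 and -2.71 against -1.03 and 0.30.

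The second question was which genes differed between 170 and vec while H and WT lay close together, whether or not these lines had differed earlier. In total 127 genes (2.06%) were past 1 unit higher in 170 than in vec with H within 0.5 of WT, and 81 of these passed the test of that pair. The same description held for 126 genes on the lower side (2.04%), of which 70 passed. The difference between the pairs was itself tested and passed for 1 gene, HOG1 (0.0162%; 482 genes at an unadjusted p under 0.05), at 8.64 ± 0.25 (adjusted p = 0.00025). For every other gene below, the pair values stand side by side, and a difference between the pairs was not established.

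Several well-known Hog1 targets showed this arrangement. GPD1, which makes the glycerol precursor glycerol-3-phosphate, read 3.70 in WT, 3.38 in H and 3.95 in 170, against 0.41 in vec. It was 3.54 ± 0.58 higher in 170 than in vec, or 11.6-fold (adjusted p = 0.026), and H was 0.32 ± 0.58 below WT (adjusted p = 0.80). In WT it had been at 1.56 at 45 min and 2.98 at 90 min, whereas H was already at 4.15 at 45 min. The WT array rose from 45 to 150 min while the H array went down by 0.77, so that the lines met from both sides. RTC3, a small protein of the osmostress response, read 0.68, 0.74, -3.85 and 1.58 in WT, H, vec and 170 at 150 min, and 170 exceeded vec by 5.43 ± 0.66 (adjusted p = 0.014). In WT it was -3.87 at 45 min, near vec at -4.79, and H was then at 0.78. H minus WT for RTC3 was therefore 4.64 at 45 min, 2.79 at 90 min and 0.06 at 150 min. GRE2, a methylglyoxal reductase, had differences of 3.09, 2.45 and 0.40 at the same times, and 170 exceeded vec by 3.33 ± 0.31 at 150 min (adjusted p = 0.0093). GPP2, the glycerol-3-phosphatase that follows GPD1, had 2.38, 1.40 and 0.01, with 170 above vec by 1.91 ± 0.39 (adjusted p = 0.040). Its paralogue GPP1 differed by 0.33 ± 0.31 in that pair (adjusted p = 0.52).

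Genes of the cell wall were also among these members. KDX1, a protein kinase whose gene is a target of that pathway, read 1.79, 2.23, -1.61 and 2.46 in WT, H, vec and 170. It was 4.07 ± 0.43 higher in 170 than in vec (adjusted p = 0.011), and H minus WT was 2.43 at 45 min and 0.44 at 150 min. PRM10, a membrane protein, was 3.72 higher, the wall mannoprotein CWP1 3.39 higher and the wall-anchored protease YPS3 2.63 higher in 170 than in vec (adjusted p = 0.019, 0.015 and 0.0090). Their values in H and WT lay within 0.35 of each other. FSH1, a serine hydrolase, and YPK2, a kinase of the plasma membrane stress pathway, stood 2.52 and 2.49 higher in 170 (adjusted p = 0.031 and 0.015). The narrowing in the H and WT pair was tested as its difference at 150 min less that at 45 and 90 min. In limma 0 genes passed (0%, with 147 at an unadjusted p under 0.05). The error of this test comes from how the lines' steps from 45 to 90 min differed. A gap already closing by 90 min, as in RTC3 (4.64 at 45 min, 2.79 at 90 min), widens its own error. The contrast therefore cannot decide for such genes. For RTC3 this contrast was -3.66 ± 0.81 and for GRE2 -2.38 ± 0.38, each at an adjusted p of 1.

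Over the 127 genes the median of H minus WT was 0.06 at 0 min, 0.40 at 45 min, 0.51 at 90 min and 0.27 at 150 min. It was at least 0.5 at 45 min in 53 of them and at 90 min in 64, against 6.02% and 9.62% of all genes. The value at 150 min is limited by the choice of these genes, so a smaller median there is no finding. The WT array was higher at 150 than at 45 min in 89 of the 127 (70.1%, against 57.6% of all genes), and the H array in 71 (55.9%, against 54.2%). Of the members with a symbol, 59 passed the test of 170 minus vec and were well above background on all 4 arrays. Among these, WT was higher at 150 than at 45 min in 44 and H was lower in 26. Over all genes WT was higher in 57.6% and H was higher in 54.2%. The WT and H values at 150 min entered the choice of the members, so these counts are a description only. The median of 170 minus vec over the 127 genes went from 0.19 at 0 min through 0.78 and 1.19 to 1.36. On the lower side the median of H minus WT stayed between -0.07 and -0.15 at the 4 times, and 7 and 20 of the 126 genes were at -0.5 or below at 45 and 90 min (5.56% and 15.9%, against 1.98% and 4.82% of all genes).

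**Figure D3:**
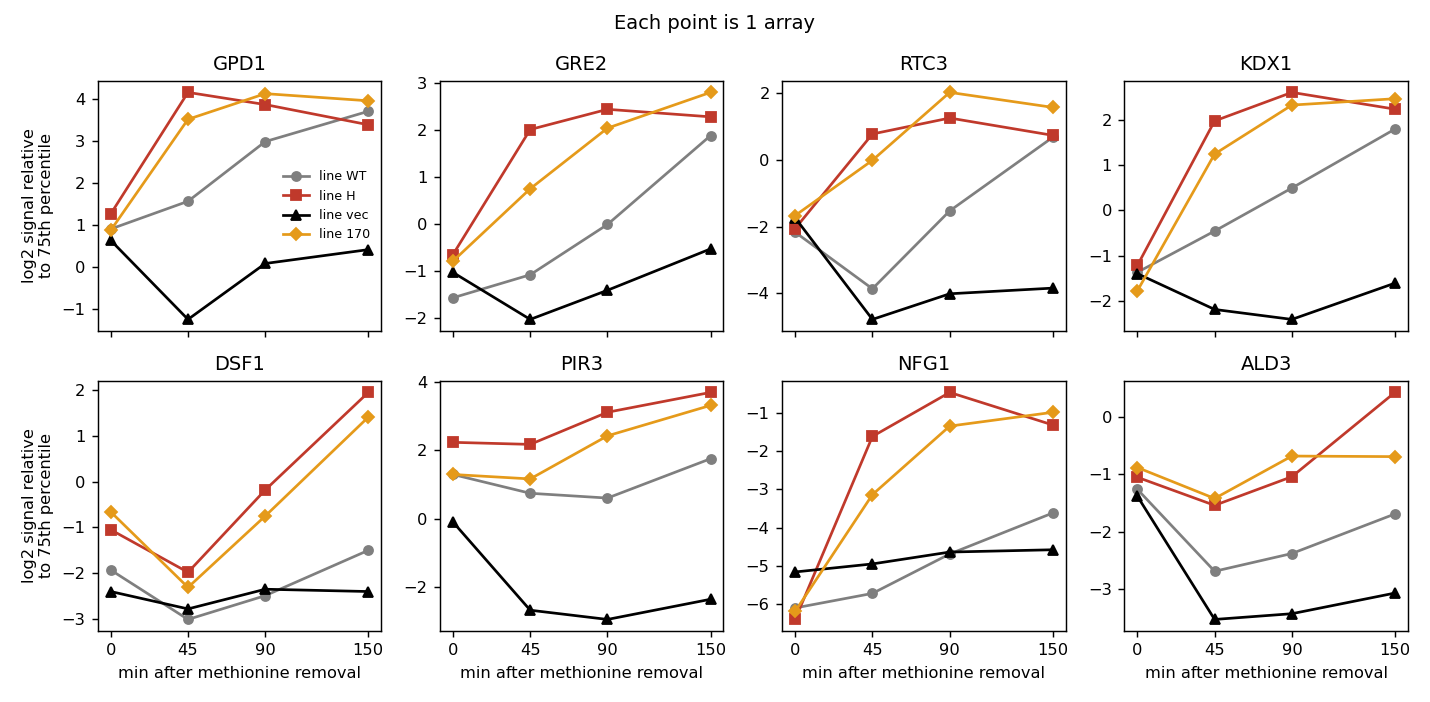
Log2 signal relative to the array's 75th percentile against minutes after methionine removal (0, 45, 90 and 150) in the 4 lines, each point 1 array. In GPD1, GRE2, RTC3 and KDX1 the WT line comes within 0.5 of H by 150 min (0.68 and 0.74 for RTC3), and in DSF1, PIR3, NFG1 and ALD3 it remains below H (-1.5 and 1.95 for DSF1).

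The members lower in 170 than in vec, with H and WT close together, included enzymes of several biosynthetic and breakdown routes. YHB1, a flavohaemoglobin that detoxifies nitric oxide, read -0.40 in WT, -0.75 in H, 2.34 in vec and -1.24 in 170. The vector array stood alone above the other 3. YHB1 fell by 3.58 ± 0.43 (SE) in 170 relative to vec (adjusted p = 0.014), and by 1.71 at 0 min. ARO10 and ARO9, which break down aromatic amino acids, fell by 2.80 ± 0.30 and 2.49 ± 0.29 (adjusted p = 0.011 and 0.012). ADE17, of purine synthesis, and GCV2, of glycine cleavage, fell by 2.41 and 2.19 (adjusted p = 0.020 and 0.016), against 0.01 and 0.67 in 170 minus vec and 1.87 and 1.51 in H minus WT at 0 min. CYB5 and ERG5, which act in sterol synthesis, fell by 2.18 and 1.93, and CYC1, the major cytochrome c isoform, fell by 1.99. FUS1, which acts in cell fusion on mating, and MFA1, a gene for the a-factor pheromone, fell by 1.92 and 1.88 and were already 1.90 and 2.77 lower at 0 min.

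Few genes differed by 1 unit in the H and WT pair alone. In total 14 genes (0.227%) were past 1 unit higher and 5 (0.0811%) past 1 unit lower in H than in WT with 170 within 0.5 of vec. The higher ones included genes of storage carbohydrates. The glycogen phosphorylase GPH1 was 1.70 higher in H than in WT and differed by -0.05 in the other pair, and the trehalose synthase subunit TSL1 differed by 1.37 and -0.48. The glycogen debranching enzyme GDB1 differed by 1.34 and 0.42, the hexokinase HXK1 by 1.5 and 0.37, and RTN2, a reticulon-like protein, by 1.52 and 0.17. On the lower side SRL1, TOS6 and SVS1, genes of cell wall proteins, were at -1.40, -1.39 and -1.25 in H minus WT. None of these 8 passed the test of H minus WT or of the difference between pairs. For SRL1 and TOS6, 170 had been 4.06 and 4.33 below vec at 0 min.

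Lists of pathway genes place these members in their groups, and all counts in this and the following paragraphs are of the mean of the pairs at 150 min, beside 8% higher and 4.61% lower over all genes. Of 29 osmostress targets, 14 rose and 0 fell, with a median difference of 1.20 (0.81 in H minus WT and 1.39 in 170 minus vec). The median of all 6165 genes was -0.05. Besides those named above, the aldose reductase GRE3 rose by 1.68, the transketolase TKL2 by 1.67 and the catalase CTT1 by 0.74 ± 0.16 (adjusted p = 0.037). HSP12, a membrane-stabilising stress protein, read 0.14, 2.37, -1.88 and 2.21 in WT, H, vec and 170, and its difference of 3.16 ± 0.80 had an adjusted p of 0.055. Among 14 genes of glycerol metabolism and transport, 3 rose, namely STL1, the dihydroxyacetone kinase DAK1 at 1.26 and ASK10, a regulator of the glycerol channel Fps1, at 0.51. ASK10 differed by 0.12 in H minus WT and by 0.90 in 170 minus vec. The channel gene FPS1 differed by -0.10 (adjusted p = 0.54).

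Within the HOG pathway itself, most genes of the sensing branches did not pass the test. Of 14 branch genes only SSK1 did, a response regulator that rose by 0.50 (adjusted p = 0.049), and the kinase gene PBS2 differed by 0.22 (adjusted p = 0.23). Of 6 phosphatase genes 2 rose, PTP2 by 0.92 ± 0.12 (adjusted p = 0.016) and PTP3 by 0.56 ± 0.13 (adjusted p = 0.044). PTP3 differed by 1.28 in 170 minus vec and by -0.16 in H minus WT. Of 9 genes for downstream factors and kinases 4 rose, led by the kinase RCK1 at 1.68 ± 0.14 (adjusted p = 0.010), with the factors MSN4 at 1.09, SMP1 at 1.08 and CIN5 at 0.79. CIN5 differed by 0.27 in H minus WT and by 1.32 in 170 minus vec. The other downstream genes HOT1, SKO1, MSN1, MSN2 and RCK2 lay between -0.29 and 0.24.

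The cell wall and general stress lists also leaned upward. Of 23 cell wall integrity genes 14 rose and 0 fell (median 0.60; 0.19 in H minus WT and 0.87 in 170 minus vec), including the pathway's own kinase SLT2 at 0.60 ± 0.11 (adjusted p = 0.028) and the glucan synthase GSC2 at 1.27 ± 0.19 (adjusted p = 0.020). SLT2 differed by 0.14 in H minus WT and by 1.05 in 170 minus vec. GSC2 was one of the members with the larger difference in H minus WT, 1.80 against 0.75. Of 44 general stress genes 15 rose and 1 fell, with a median of 0.68, and here the median of H minus WT (0.91) exceeded that of 170 minus vec (0.39). TMA10, a ribosome-associated protein of stressed cells, rose by 2.14, but it had stood 2.58 higher at 0 min (adjusted p = 0.012). The gene that fell was APE1, a vacuolar aminopeptidase, by 0.94, with -0.03 in H minus WT and -1.86 in 170 minus vec. Of 21 trehalose and glycogen genes 4 rose, namely GAC1, the trehalases NTH1 and ATH1, and GIP2, and the list medians were 0.81 in H minus WT and 0.34 in 170 minus vec. At 0 min 7 of these 21 genes had passed as higher (median 0.54), as had 13 of the 44 general stress genes (median 0.47). None of 22 chaperone genes passed the test in limma. HSP82, at 0.95 ± 0.61 (adjusted p = 0.32), had the largest mean difference of this list.

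**Figure D4:**
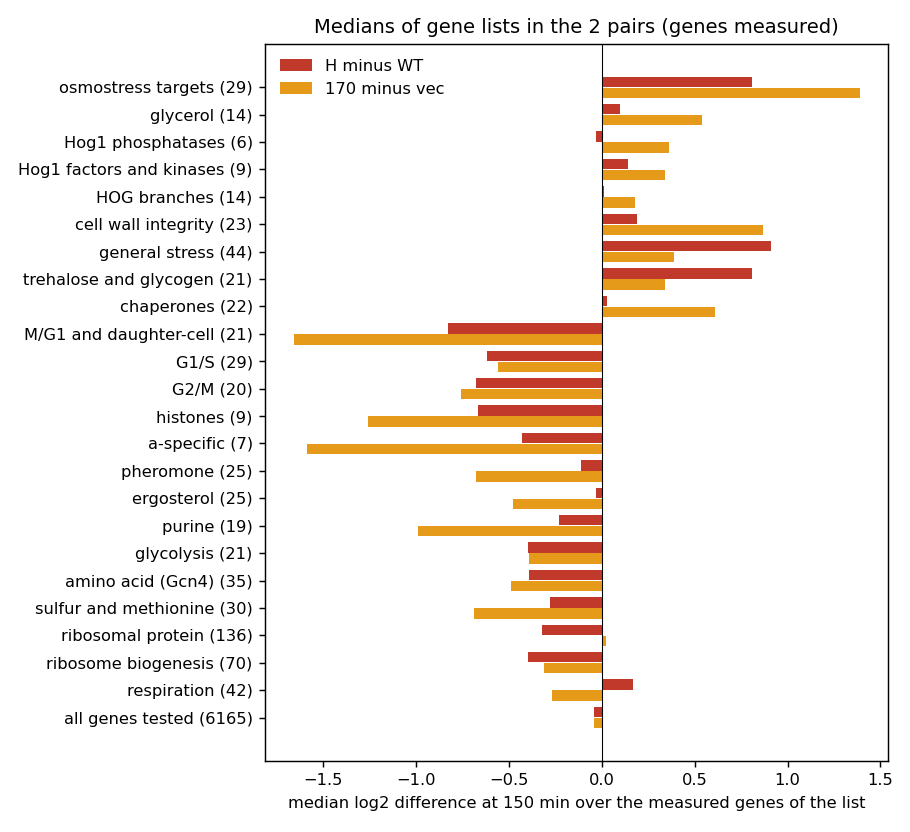
Median log2 difference at 150 min over the measured genes of 23 lists and over all 6165 genes, for H minus WT (red bars) and 170 minus vec (orange bars), with the number of genes in brackets. Osmostress targets have medians of 0.81 and 1.39, and M/G1 and daughter-cell genes of -0.83 and -1.66.

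Of the listed cell cycle genes, all that passed the test were lower in the active lines. Of 21 M/G1 and daughter-cell genes 13 fell and 0 rose (median -1.33), of 20 G2/M genes 13 fell and 0 rose (median -0.70), and of 29 G1/S genes 7 fell and 0 rose (median -0.52). Fewer cells in a phase and less RNA per cell cannot be told apart in these bulk samples. CLB1 and CLB2, the main mitotic cyclins, fell by 1.33 and 1.12, and RNR1, the large subunit of ribonucleotide reductase, fell by 1.16 ± 0.16 (adjusted p = 0.017). HO, the mating-type endonuclease transcribed in mother cells, fell by 1.97 ± 0.44 (adjusted p = 0.041), with -0.83 in H minus WT and -3.11 in 170 minus vec. At 0 min the medians of these lists were already -1.06, -0.54 and -0.72. The histone genes differed in this respect. Of 9, 7 fell at 150 min with a median of -0.97, while their median at 0 min was -0.18. HHF2, a histone H4 gene, read 2.23, 1.38, 2.76 and 1.33 in WT, H, vec and 170 and fell by 1.14 ± 0.17 (adjusted p = 0.020), against a difference of -0.20 at 0 min (adjusted p = 0.48). Histone genes come in near-identical pairs whose probes may share signal.

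Genes of mating were counted by cell type. Of 7 a-specific genes 5 fell (median -0.95; -0.43 in H minus WT and -1.59 in 170 minus vec), and all 7 were lower at 0 min, when the median was -1.73. The summed level of the list at 150 min was 2.65 in WT, 2.22 in H, 3.74 in vec and 2.12 in 170, and every one of its genes was well above background on the 4 arrays. BAR1, the protease that degrades alpha-factor, was 1.60 ± 0.12 lower in the active lines (adjusted p = 0.0082), against a difference of -2.34 at 0 min. None of the 4 alpha-specific genes listed passed in limma. The summed level of that list lay between -2.31 and -2.17 on the 4 arrays, most of it from SAG1, at -2.82 to -2.71. AFB1, the a-factor blocker named above, is not on the list and was 2.99 higher in the active lines. Of 25 pheromone response genes 7 fell and 2 rose, with FAR1, an inhibitor of the G1 cyclin kinase, falling by 1.40 ± 0.19 (adjusted p = 0.017). The part of a difference in mating-type expression between the lines in the other results was not tested.

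Lists of metabolism and growth followed. Of 21 glycolysis and fermentation genes 7 fell, among them PGK1 by 0.92 and TDH3 by 0.72, and 14 of the list had been lower at 0 min. Of 25 ergosterol genes 6 fell, including ERG3 by 1.04, ERG5 by 1.01 and ERG25 by 0.98, and the list medians were -0.03 in H minus WT and -0.48 in 170 minus vec. Of 19 purine genes 4 fell and 1, the inosine monophosphate dehydrogenase IMD2, rose by 0.99 (adjusted p = 0.040). Of 30 sulfur and methionine genes, the pathway of the promoter used, 0 passed the test in limma. The median of that list was -0.28 in H minus WT and -0.69 in 170 minus vec. Of 136 ribosomal protein genes 1 fell, RPL31B by 0.45, and their median was -0.32 in H minus WT and 0.02 in 170 minus vec. At 0 min 82 of them had been lower in the active lines, with a median of -0.52. Of 17 thiamine genes 2 rose, with THI4, which makes the thiazole part of thiamine, at 2.37 ± 0.37 (adjusted p = 0.020), and of 22 meiosis genes 5 rose. Among these 5, SPS2 was not well above background in vec or 170 at 150 min. Among 6 measured plasmid marker genes 1 fell, LYS2 by 0.89 (adjusted p = 0.036).

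The remaining lists described are of the cell surface and of nutrient responses. Of 20 glucan remodelling genes 7 rose and 2 fell, and of 23 mannoprotein genes 5 rose and 2 fell. At 0 min 10 and 7 genes of these lists had passed as lower and 0 as higher, beside 10.2% lower over all genes. Of 16 autophagy genes 3 rose, with ATG8, whose product builds the autophagosome membrane, at 1.53 (adjusted p = 0.017) and at 1.54 and 1.53 in the separate pairs. At 0 min ATG8 was already 0.13 higher in H than in WT and 1.19 higher in 170 than in vec. Of 20 glucose-repressed genes 4 rose and 0 fell, and of 17 oxidative stress genes 3 rose and 1 fell. Before induction 3 autophagy, 6 glucose-repressed and 3 oxidative stress genes had passed as higher, and 1, 2 and 3 as lower. Over all genes 5.53% were then higher and 10.2% lower. Of 35 amino acid synthesis genes 3 fell, and of 70 ribosome biogenesis genes 1 fell. The last of these counts became 9 with normexp background correction, and the amino acid count became 6. The list medians were lower in both pairs, beside -0.05 for the mean of the pairs over all genes. For amino acid synthesis they were -0.39 in H minus WT and -0.49 in 170 minus vec. For ribosome biogenesis they were -0.40 and -0.31 in the same order.

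The third question was how far these differences were already present before induction or at earlier times. At 0 min the mean of the pairs passed for 967 genes (15.7%), 341 higher (5.53%) and 626 lower (10.2%). The 170 and vec pair alone passed for 1623 genes (26.3%) at 0 min, 636 higher (10.3%) and 987 lower (16%), and the H and WT pair for 0 in limma (260 genes at an unadjusted p under 0.05). The difference between the pairs passed at 0 min for 233 genes (3.78%), 51 higher (0.827%) and 182 lower (2.95%) in 170 minus vec. Of the 777 genes called at 150 min, 189 were also called at 0 min with the same sign, which is 24.3% of the first list and 19.5% of the second, and 23 were called with the opposite sign. Over 45 and 90 min the mean of the pairs passed for 1254 genes (20.3%), 715 higher (11.6%) and 539 lower (8.74%), and 607 genes were shared with the same sign, 78.1% of the list at 150 min and 48.4% of the other. Taken alone, H minus WT passed over 45 and 90 min for 6 genes, all higher (0.0973%): NFG1 at 4.16, GRE2 at 2.77, YHR022C at 2.29, NQM1 at 1.87, YHL041W at 1.67 and GID10 at 1.51. The same test of 170 minus vec passed for 1107 genes (18%), 608 higher (9.86%) and 499 lower (8.09%). The fits at the different times use the same estimate of the spread.

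The change from 0 to 150 min in the mean of the pairs, which takes out a difference that was fixed from the start, passed for 88 genes (1.43%), 64 higher (1.04%) and 24 lower (0.389%). NFG1 had the largest such change at 3.62 (adjusted p = 0.043). ALD3, SNO4 and YPS3 also passed, with changes of 1.90, 1.96 and 1.64 (adjusted p = 0.043, 0.048 and 0.048). On the lower side GCV2 and ADE17 passed with -2.42 and -2.39 (adjusted p = 0.043 and 0.048), and the mean of the pairs for GCV2 had stood 1.09 higher at 0 min (adjusted p = 0.024). For SCW11 and DSE1, which stood low at both times, the change was 0.09 and 0.06. This count depended on the setting more than any other and was 0 when each slide had its own step from 45 to 90 min.

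Comparisons that cross the slides cannot tell line from slide and are given only as values. WT minus vec at 150 min passed for 72 genes (1.17%), 54 higher (0.876%) and 18 lower (0.292%), and H minus 170 for 0 in limma (1016 genes at an unadjusted p under 0.05). In RTC3, KDX1 and PRM10 the WT array lay 4.53, 3.40 and 3.49 above vec, and in AFB1, DSF1 and NFG1 it lay 0.81, 0.90 and 0.96 above it. The H and 170 arrays differed by -0.84, -0.23 and 0.12 in the first 3 of these genes and by 0.78, 0.54 and -0.32 in the last 3.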

How the data were processed

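The signals were deposited as spot intensity by Agilent Feature Extraction 10.7.1.1, per the file headers, with background subtracted and no scaling between arrays. The deposited value table holds log2 values that are centred on each probe's median within a slide, as its values show. It served as an alternative. The RNA extraction is not given in the sources used here.

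Processed intensities were taken to log2 and averaged over the 2 spots of a probe, and the array's 75th percentile of log2 spots was subtracted. A spot flagged as non-uniform was left out where the other spot was uniform. The brightest probe stood for each of the 28 genes with several. Of 6227 genes, 5738 names matched a RefSeq table of another assembly, which supplied names but no coordinates.

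limma 3.58.1 in R 4.3.3 (lmFit, eBayes, two-sided) was fitted to all 16 arrays with a mean for each line at 0 and at 150 min, and with lines plus a 45-to-90 min step for the 8 other arrays, which left 3 residual degrees of freedom (prior 2.95). The Benjamini-Hochberg adjustment ran over all 6165 genes, with 0.05 as the threshold. The fit was tested on simulated data.

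The members and the 39 lists were chosen with earlier results of these data known. The rule for named genes took HOG1, MET3 and 7 osmostress genes, the 12 highest and 12 lowest called in both pairs, the 10 and 10 called in the vec pair only, the 5 and 5 called in the WT pair only, and up to 4 per list. No gene was called in both pairs or in the WT pair only, and HOG1 alone in the vec pair only, so size limits of 1 and 0.5 replaced those calls after the values were seen, among genes with a symbol that were well above background on all 4 arrays. Other genes, named as copies, members nearest a limit or further examples from a list, were also picked after their values were seen. Alternatives covered background correction (normexp on the median spot signal, offset 50), scaling, filters, probe summary, variance trend, the design and each pair left out.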

Additional observations from a re-analysis of the deposited data

Results flagged for a closer look

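HOG1 stood out because its difference between the pairs passed the test: 170 minus vec less H minus WT at 150 min was 8.64 (limma adjusted p = 0.00025). By design 170 carries the HOG1 construct and vec an empty plasmid, whereas H and WT both carry a HOG1 construct. With 1 array per line and time, no group was large enough to look for single arrays far from the rest.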

How the results depend on the processing

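The 777 calls for active lines minus controls at 150 min became 388 with a 45-to-90 min step for each slide and 0 in both fits to the 4 arrays at 150 min alone, where the smallest adjusted p was 0.059 with the slide and 0.35 without it, and each fit had 1 or 2 residual degrees of freedom. Leaving out a pair gave 0 to 526 calls, with 0 without the 170 and vec pair. Calls for 170 minus vec at 150 min went from 526 to 265 with the step for each slide. Calls for change from 0 min of active lines minus controls went from 88 to 300 with normexp, 308 with quantile normalization, 247 with only genes well above background on the 4 arrays, 17 with no filter, 316 with an intensity trend, 156 in the deposited table, 0 with the step for each slide and 0 in a fit to the differences alone (627 at an unadjusted p under 0.05). Their share of higher genes, 72.7%, was 59.1% under quantile normalization. The cause of these shifts was not tested. Of the counts for the main comparisons and the 4 size classes under these alternatives, the other 100 stayed within 1.5 times. List counts moved more with normexp: higher genes went from 1 to 3 for the HOG branches, 3 to 5 for glycerol, 4 to 7 for trehalose and glycogen and 3 to 7 for autophagy, and lower genes from 7 to 11 for G1/S (1 G1/S gene then rose), 4 to 7 for purine and 2 to 4 for glucan remodelling; glycolysis went from 7 to 4 lower under quantile normalization. Without the 170 and vec pair the sign turned for PTP3 (-0.16), GPX2 (0.11) and ERG28 (0.04), against 1.28, -1.24 and -1.49 without the H and WT pair. No paired analysis was possible because the replicate numbers only name arrays and pair none; the slide, which does join H with WT and 170 with vec, is the block in the fit above. There is 1 array per line and time, and dim probes such as STL1, not well above background in WT at 0 and 45 min, have only bounds there.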
